A study of Trichoderma atroviride with 42 samples.

Results

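The mycelium of Trichoderma atroviride that fruit fly larvae had grazed was compared, 8 h after the animals were removed, with untreated mycelium of the same labelled time. The comparison rests on 6 of the 42 libraries of the series, chosen by their labels: 3 of larva-grazed mycelium (Dm_8h) and 3 of the late control (CT8). All mycelium was wild type, grown from conidia in darkness at 27 °C for 36 h, on a cellophane sheet over potato dextrose agar. For Dm_8h, Drosophila melanogaster larvae were left on it for 10 min in the dark and taken off with forceps, while CT8 plates were only opened for 2 min in the dark. Groups set beside these were mycelium cut with a scalpel 8 h earlier (MI_8h), mycelium exposed 8 h earlier, for 10 min, to a collembolan, Orthonychiurus folsomi (Of_8h), larva-grazed mycelium of 30 min, 90 min and 4 h (Dm_30min, Dm_90min, Dm_4h) and the early control (CT0). CT0 was opened like CT8, carries a time 0 label and stands at 30 min in the series' design text. Each group held 3 libraries, described there as independent biological replicates that each pool 3 technical ones. The whole mycelium was collected, so grazed and untouched hyphae are mixed in each library, and fewer hyphae expressing a gene cannot be told apart from less RNA per hypha.

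Filamentous fungi seal damaged hyphae, regrow from the stumps and defend themselves with secreted enzymes, small toxic metabolites and reactive oxygen. In T. atroviride, cutting the mycelium is known to set off hyphal regeneration and asexual sporulation, with reactive oxygen, calcium and oxidised fatty acids among the signals. The comparison asks which transcripts still differ hours after the larvae were taken off.

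Read counts were available for 11786 genes, of which 9193 had enough counts to be tested. Total counts were 2479450, 1607248 and 4332056 in replicates 1, 2 and 3 of Dm_8h and 3541691 to 4326835 in CT8. Tatro_002410-T1, which has no product text, took 6.20%, 14.9% and 0.258% of the counts in the 3 Dm_8h libraries and 1.57% to 4.00% in CT8. The Dm_8h libraries differed more among themselves than those of the other late groups. The lowest correlation of log2 levels within Dm_8h was 0.954, against 0.985 in MI_8h and 0.989 in CT8. The median gene of replicates 1, 2 and 3 lay 0.366, 0.334 and 0.240 from the CT8 mean on the log2 scale, so replicate 3 was the nearest to the control.

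Larval grazing left a broad mark at 8 h. Of the 9193 genes 2290 passed the test (24.9%), 1096 higher in Dm_8h (11.9%) and 1194 lower (13%). At least 2-fold changes were fewer, 578 genes (6.29%), and leaned upward, with 370 rises (4.02%) and 208 falls (2.26%). A gene is called changed here at an adjusted p under 0.05 from edgeR's quasi-likelihood test over all 42 libraries, with Benjamini-Hochberg adjustment. Fold changes are fitted log2 values with their standard error (SE), and levels are CPM, the counts of a gene scaled to a common library size. The SE and adjusted p rest on a spread estimated over all groups, so they do not measure the spread within Dm_8h alone. Fitted on the 6 libraries alone, the count was 1444. Of the 1096 rises the 3 Dm_8h libraries lay above all 3 CT8 libraries in 1027, and of the 1194 falls they lay below in 1140, while 39.1% of all genes tested had no overlap. Product texts, which name a protein domain or family, exist for 2865 of the genes, all of them genes that the authors listed as changed 30 min after injury. They cover 802 of the called genes (28% of the genes with a text), and 12.1% of the genes with a text rose and 15.9% fell. Every gene list below holds only genes with a text. Of the 370 rises of at least 2-fold, 293 (79.2%) have no text, against 68.8% of all genes tested. The biology described below is therefore that of the annotated minority.

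The strength of the response differed between the grazed libraries, above all in the falls. Among the 208 falls of at least 2-fold the median log2 difference from the CT8 mean was -1.93 in replicate 1, -1.66 in replicate 2 and -0.96 in replicate 3. Replicate 3 held the highest of the 3 Dm_8h levels in 149 of those 208 genes. The 370 rises were closer together, with medians of 1.62, 1.70 and 1.40, and replicate 3 held the highest level in 50 of them. Replicate 3 is also the deepest of the 3 and the one with least Tatro_002410-T1, and the part of either in this spread was not tested. Without replicate 3, 443 genes rose and 369 fell at least 2-fold.

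**Figure D1:**
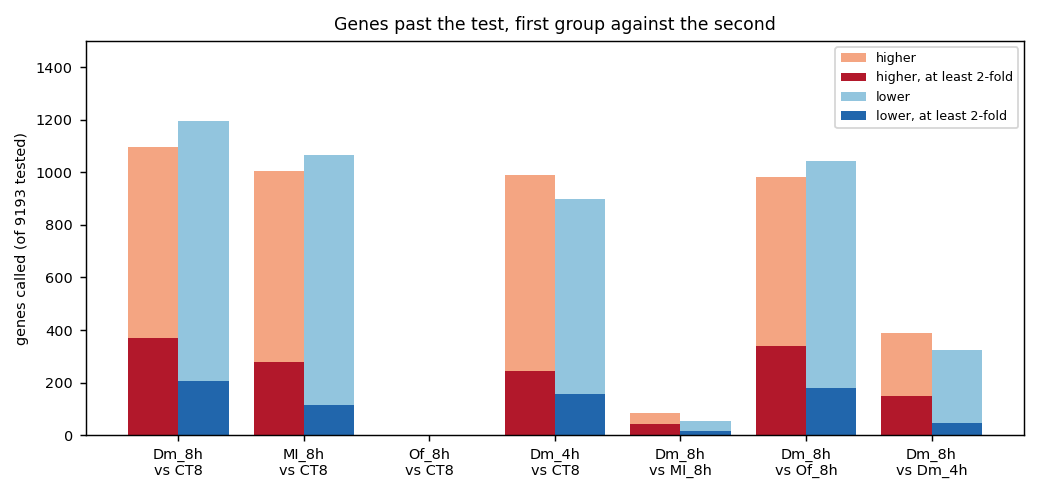
Bars give the number of genes, of 9193 tested, that were higher or lower in the first group of each comparison than in the second, and the darker parts those changed at least 2-fold. Dm_8h differed from CT8 in 2290 genes and from Of_8h in 2023, from Dm_4h in 715 and from MI_8h in 139, while Of_8h against CT8 gave 0.

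The largest rise among annotated genes was that of a cell surface protein. Tatro_007246-T1, of the cerato-ulmin hydrophobin family, encodes one of the small secreted proteins that coat aerial hyphae and spores and make them water-repellent. It stood at 10.6, 5.13 and 6.09 CPM in the CT8 libraries and at 222, 268 and 205 CPM in the Dm_8h libraries, a 31.1-fold rise (log2 4.96 ± 0.27, SE, adjusted p = 1.1e-16). The groups were far apart, and all 3 grazed libraries rose alike. MI_8h libraries had 161, 141 and 106 CPM and Of_8h libraries 15.2, 10.4 and 25.4 CPM. At 4 h after grazing it had reached only 75.5, 58.4 and 73.7 CPM, lower than at 8 h by 1.73 ± 0.21 on the log2 scale (adjusted p = 3.8e-07), and at 30 min it had not changed from CT0 past the test (log2 -0.79 ± 0.64). CT8 itself was above CT0 for this gene (log2 1.67 ± 0.46, adjusted p = 0.018), and against CT0 the 8 h rise was 6.63 ± 0.33.

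A run of 3 genes with consecutive identifiers rose. They are Tatro_007177-T1, with an aminoglycoside phosphotransferase text, Tatro_007178-T1, a histidine-specific SAM-dependent methyltransferase, and Tatro_007179-T1, a catalase, the enzyme that breaks down hydrogen peroxide. The methyltransferase went from 1.62, 1.71 and 1.80 CPM in CT8 to 26.3, 81.7 and 30.1 CPM in Dm_8h (log2 4.60 ± 0.49, adjusted p = 2.3e-09). The catalase went from 3.46, 3.14 and 4.96 CPM to 23.3, 82.4 and 36.8 CPM (log2 3.49 ± 0.41, adjusted p = 2.8e-08). In both, replicate 2 was far above the other grazed libraries, and even the lowest grazed library was several times the highest control. The phosphotransferase gene rose more evenly, from between 4.73 and 6.27 CPM to 33.6, 55.6 and 39.5 CPM (log2 2.88 ± 0.29). At 30 min the fitted changes against CT0 had been larger for all of them, 5.24 ± 0.46 for the methyltransferase, 5.82 ± 0.44 for the catalase and 4.72 ± 0.31 for the phosphotransferase gene. Between 4 and 8 h none of these genes differed past the test.

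Several oxidative enzymes were among the large rises, although their lists held more falls than rises. Of 57 genes of cytochromes P450 and monooxygenases 5 rose (8.77%) and 10 fell (17.5%), and of 78 FAD oxidoreductases 10 rose (12.8%) and 19 fell (24.4%). Of all genes 11.9% rose and 13% fell, and of genes with a text 12.1% and 15.9%. The share of falls in the P450 list was thus near that of genes with a text. Against CT0 the FAD oxidoreductases had 14 rises (17.9%) and 8 falls (10.3%), and the P450 list 6 (10.5%) and 10 (17.5%). Of all genes 10.3% rose and 10.3% fell in that comparison. The cytochrome P450 Tatro_001233-T1, of a family of haem enzymes that oxidise lipids, toxins and secondary metabolites, rose from 80.1, 76.2 and 71.5 CPM to 553, 656 and 501 CPM (log2 2.90 ± 0.27, adjusted p = 1.3e-10). Its grazed libraries agree closely, and it was higher at 8 h than at 4 h (log2 difference 1.00 ± 0.25, adjusted p = 0.0095), though not past the test without Dm_4h replicate 1 or 3 (adjusted p = 0.067 and 0.079). The lipoxygenase Tatro_003855-T1, which adds oxygen to polyunsaturated fatty acids at the start of oxylipin synthesis, rose from 246, 192 and 264 CPM to 935, 2150 and 1320 CPM (log2 2.64 ± 0.28). Here replicate 2 was the highest and replicate 1 the lowest, with no overlap with CT8. A pair of berberine-like oxidoreductases, flavoenzymes often found with secondary metabolite genes, were higher too. Tatro_006438-T1 rose by 2.13 ± 0.25 and Tatro_011386-T1 by 2.39 ± 0.39 on the log2 scale, the latter from 2.54, 2.00 and 1.80 CPM to 8.39, 10.7 and 13.7 CPM. Tatro_002107-T1, with a mycolic acid cyclopropane synthase text, rose by 2.18 ± 0.29 to 59.1, 67.6 and 72.7 CPM.

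**Figure D2:**
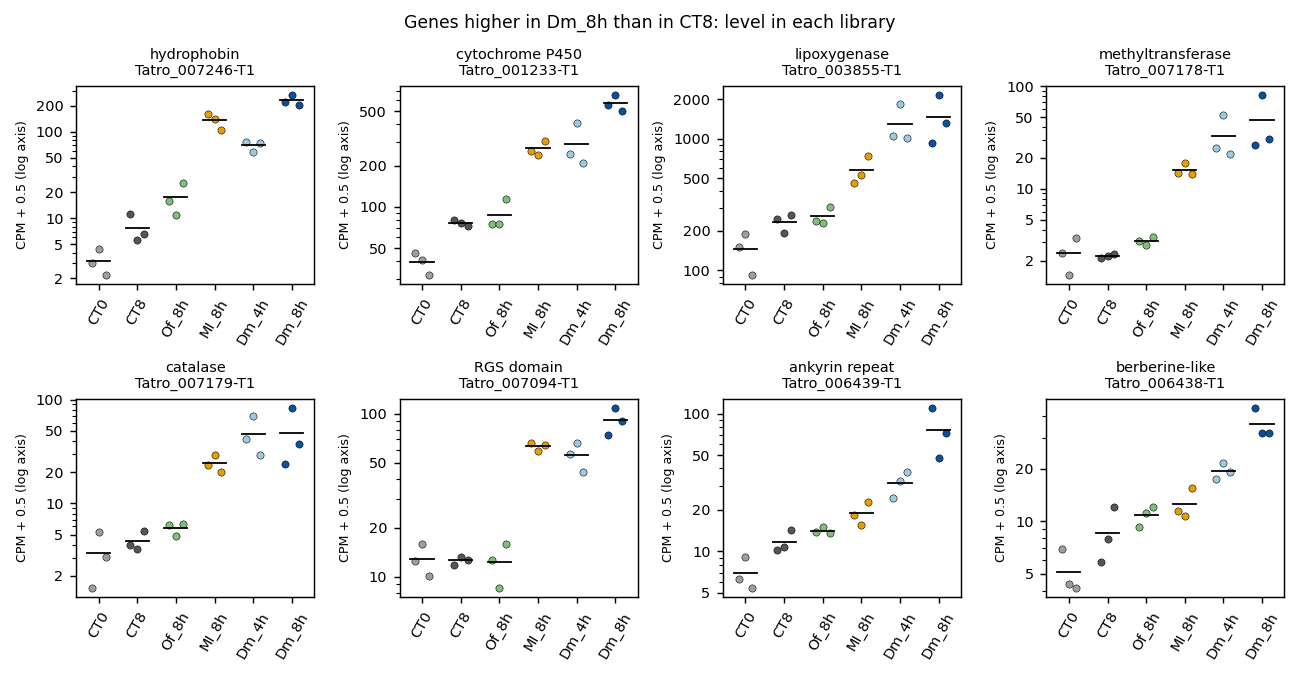
Each panel shows 1 gene, with CPM plus 0.5 on a log axis for the 3 libraries of 6 groups and a line at the group mean. The Dm_8h points lie above all CT8 points in every panel, the hydrophobin at 205 to 268 against 5.13 to 10.6 CPM.

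Signalling genes changed in both directions. Tatro_007094-T1, with an RGS domain, belongs to the regulators that shorten the active state of heterotrimeric G proteins. It rose from 11.3, 12.8 and 12.2 CPM to 73.6, 108 and 90.1 CPM (log2 2.89 ± 0.26, adjusted p = 6.8e-11). The other annotated RGS gene, Tatro_004091-T1, rose by 1.06 ± 0.21. The neighbouring identifiers Tatro_004598-T1 and Tatro_004599-T1, both with a GTP binding domain, rose together, the first to 174, 195 and 120 CPM from 58.6, 56.5 and 62.2 (log2 1.44 ± 0.22) and the second by 1.67 ± 0.20. In the list of 33 G-protein and small GTPase genes 7 rose (21.2%) and 13 fell (39.4%), against 11.9% and 13% of all genes. The falls were small, between -0.27 and -0.67 on the log2 scale, and included 4 of 7 genes with GTPase in the text. With library totals in place of the scaling factors 7 rose and 6 fell, while 1187 of all genes tested rose and 868 fell. Against CT0 6 rose and 6 fell, 18.2% each, beside 10.3% and 10.3% of all genes. Without Dm_8h replicate 1 there were 5 and 6, while 813 of all genes tested rose and 855 fell.

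Against CT8, none of the annotated mitogen-activated protein (MAP) kinase genes was called at 8 h with all libraries in the fit. Their products relay stress and damage signals. Tatro_000708-T1 had 261, 195 and 192 CPM in Dm_8h and 260, 245 and 256 CPM in CT8 (log2 -0.23 ± 0.09, adjusted p = 0.06), and passed only without Dm_8h replicate 1 among the fits that left out 1 library (log2 -0.39, adjusted p = 0.0016). Tatro_003677-T1 and the MAP kinase kinase kinase Tatro_005384-T1 differed by -0.14 ± 0.09 and 0.22 ± 0.09. The signs of all of them turned against CT0, where Tatro_000708-T1 was at 0.09, Tatro_003677-T1 at 0.49 and Tatro_005384-T1 at -0.08 on the log2 scale. The largest of these was that of Tatro_003677-T1, and the lack of calls above is stated for CT8 only. Among genes of RNA silencing, the RNA-dependent RNA polymerase Tatro_003091-T1, which makes double-stranded RNA from single-stranded templates, rose from 186, 199 and 225 CPM to 456, 349 and 288 CPM (log2 0.84 ± 0.18, adjusted p = 0.00043). The ribonuclease III gene Tatro_006353-T1, of the enzyme class that contains Dicer, did not pass (log2 0.21 ± 0.11, adjusted p = 0.17, and -0.06 against CT0), except without Dm_8h replicate 1 (log2 0.35, adjusted p = 0.029).

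A few regulators rose. The basic-leucine zipper gene Tatro_007800-T1 went from 5.77, 7.42 and 8.34 CPM to 22.9, 30.1 and 22.2 CPM (log2 1.76 ± 0.27), and the fungal transcription factor domain genes Tatro_008005-T1 and Tatro_004118-T1 rose by 1.76 ± 0.30 and 1.38 ± 0.27. Of 125 genes of this list 13 rose (10.4%) and 23 fell (18.4%), beside 12.1% and 15.9% of genes with a text and 11.9% and 13% of all genes. The median was -0.05, near the -0.003 of all genes tested. With library totals the counts were 14 and 13, while 1187 of all genes tested rose and 868 fell.

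The group with the most one-sided rise was that of NLR-like and incompatibility proteins. In fungi these are the candidate receptors of self and non-self recognition, and several trigger the death of fused or invaded cells. Of 64 measured members 24 rose and 1 fell, with a median log2 change of 0.41. By the background of 11.9% rises and 13% falls, 37.5% of the list rose and 1.56% fell. Most of the rises came from the 38 genes whose text is an ankyrin repeat, a protein-binding repeat found in many proteins besides receptors. Of these 17 rose and none fell (median 0.62, lowest -0.39). Among 19 heterokaryon incompatibility genes 5 rose and 1 fell, 1 of 2 NB-ARC genes rose, and neither of 2 NACHT genes was called.

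Tatro_006439-T1 led the ankyrin repeat genes, at 9.69, 10.3 and 13.7 CPM in CT8 and 109, 46.9 and 72.3 CPM in Dm_8h (log2 2.77 ± 0.29, adjusted p = 2.7e-09). Tatro_000365-T1 rose from 36.0, 41.1 and 39.7 CPM to 276, 138 and 186 CPM (log2 2.38 ± 0.28), and Tatro_007955-T1 from between 6.31 and 9.41 CPM to 46.2, 19.4 and 31.4 CPM (log2 2.09 ± 0.32). In all of them replicate 1 was the highest and replicate 2 the lowest of the grazed libraries, the reverse of the lipoxygenase. The median of the list was 0.55, 0.28 and 0.35 in replicates 1, 2 and 3, so it stood above 0 in each. Leaving out any single Dm_8h or CT8 library gave 21 to 25 rises and 1 to 4 falls, and against CT0 there were 23 and 2, beside 10.3% rises and 10.3% falls among all genes in that comparison. MI_8h against CT8, which shares these controls, had 20 rises and 0 falls (10.9% and 11.6% of all genes), and Dm_4h against CT8 had 16 and 2 (10.8% and 9.78%). At 30 min after grazing, against CT0, 14 members had risen and 20 had fallen (19.1% and 20.4% of all genes), and Tatro_007955-T1 and Tatro_000365-T1 were then lower, by -2.13 ± 0.44 and -1.31 ± 0.34.

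Glycoside hydrolase genes fell more often than they rose. Of 59 such genes, whose enzymes cleave the bonds between sugars, 4 rose, 27 fell and 28 did not pass, with a median log2 change of -0.48. In share, 45.8% of the list fell and 6.78% rose, against 13% and 11.9% of all genes. All 3 genes of family 71, to which fungal alpha-1,3-glucanases belong, fell, as did 6 of 8 genes with a superfamily text only and 3 of 4 of family 47, which holds alpha-mannosidases that mainly trim sugar chains on proteins in the secretory pathway. Tatro_002916-T1, of family 71, had 41.3, 26.8 and 35.8 CPM in CT8 and 3.43, 2.68 and 6.44 CPM in Dm_8h (log2 -2.86 ± 0.32, adjusted p = 1.2e-08). Tatro_010233-T1 fell from 95.8, 76.7 and 82.0 CPM to 16.4, 12.1 and 31.4 CPM (log2 -1.94 ± 0.20, adjusted p = 2.3e-09), and Tatro_011914-T1 by 1.98 ± 0.31 to at most 5.34 CPM. A cellulose-binding protein, Tatro_010796-T1, dropped from 129, 131 and 116 CPM to 11.1, 18.8 and 56.3 CPM (log2 -1.95 ± 0.23), with replicate 3 again the nearest to the control (log2 -3.15 without it). Without any single Dm_8h or CT8 library 24 to 30 members fell and 2 to 7 rose. Against CT0 there were 21 falls (35.6%) and 4 rises (6.78%), beside 10.3% and 10.3% of all genes. The skew was not particular to Dm_8h. With the same controls MI_8h had 24 falls and 4 rises (11.6% and 10.9% of all genes). Dm_4h had 32 falls and 2 rises (9.78% and 10.8%). Tested directly against MI_8h, 2 members were higher in Dm_8h and 3 lower, which is 8.47% of the list beside 1.51% of all genes.

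Other large falls were in enzymes, transporters and a surface protein. The isoprenoid synthase domain gene Tatro_011193-T1, of the enzymes that build terpene skeletons, had 94.2, 102 and 92.9 CPM in CT8 and 3.43, 12.7 and 44.2 CPM in Dm_8h (log2 -2.02 ± 0.31). The grazed libraries ranged widely but all lay below the controls, and without replicate 3 the fitted change was -3.78. Tatro_007351-T1, a FAD/NAD(P)-binding protein, fell from 146, 143 and 166 CPM to 14.9, 18.1 and 49.4 CPM (log2 -2.31 ± 0.28), and the NAD(P)-binding Tatro_001177-T1 from 19.4, 16.5 and 14.7 CPM to 0.381, 1.34 and 5.19 CPM (log2 -2.48 ± 0.35, and -4.46 without replicate 3). The major facilitator transporter Tatro_007953-T1 fell from 124, 122 and 107 CPM to 13.7, 20.1 and 65.0 CPM (log2 -1.67 ± 0.27, and -2.85 without replicate 3), and Tatro_008771-T1 of the same superfamily by 2.14 ± 0.38, with 0 counts in replicate 2. The WSC domain gene Tatro_002948-T1, a carbohydrate-binding surface protein, fell by 2.27 ± 0.34, from between 18.3 and 22.2 CPM to between 2.01 and 5.40 CPM. A glucose/ribitol dehydrogenase, Tatro_004848-T1, fell from 2330, 2490 and 2070 CPM to 589, 681 and 1200 CPM (log2 -1.47 ± 0.20).

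**Figure D3:**
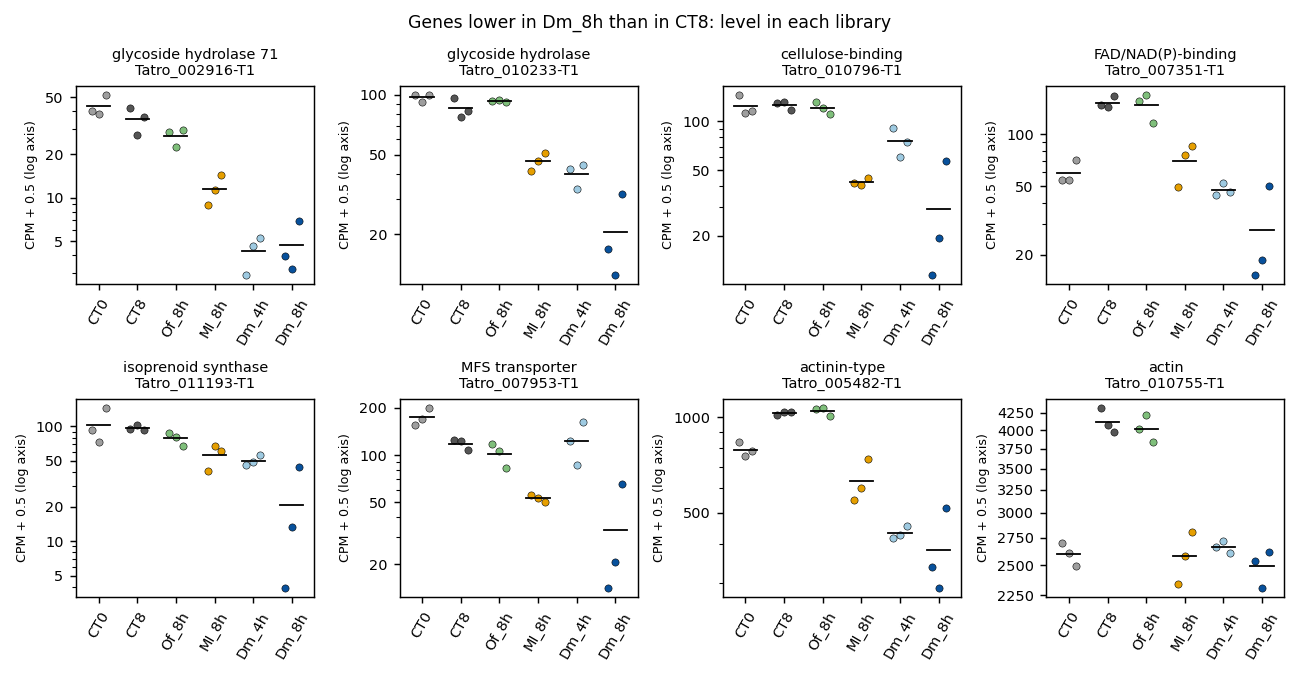
Panels show 8 genes called lower in Dm_8h, as CPM plus 0.5 on a log axis for the 3 libraries of 6 groups with a line at the group mean. All Dm_8h points lie below all CT8 points, and replicate 3, the right point of each trio, is often the highest, as in the isoprenoid synthase gene at 3.43, 12.7 and 44.2 CPM. Actin in CT0 lies at the Dm_8h level.

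Chitin and glucan synthesis genes were near the background, with 2 of 17 higher (11.8%), 3 lower (17.6%) and 12 not past the test. A glucanosyltransferase, Tatro_005017-T1, which remodels wall beta-glucan, went from 379, 395 and 337 CPM to 163, 206 and 201 CPM (log2 -0.97 ± 0.10, adjusted p = 6e-10), and the chitin synthase Tatro_001815-T1 fell by 0.54 ± 0.11. Another chitin synthase, Tatro_003420-T1, rose by 0.46 ± 0.17, a call that was lost without Dm_8h replicate 2 (adjusted p = 0.21) or CT8 replicate 1 or 2 (adjusted p = 0.12 and 0.081). Of 60 cytoskeleton and cell cycle genes 12 fell (20%) and 2 rose (3.33%), against 13% and 11.9% of all genes. The falls included the actinin-type Tatro_005482-T1, an actin cross-linker, at 1020, 1040 and 1040 CPM in CT8 and 337, 290 and 516 CPM in Dm_8h (log2 -1.43 ± 0.17, adjusted p = 3.9e-08). Actin, Tatro_010755-T1, fell from 4320, 4070 and 3970 CPM to 2540, 2310 and 2620 CPM (log2 -0.73 ± 0.09), and alpha tubulin, Tatro_003350-T1, by 0.65 ± 0.09.

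Several of these calls depended on which control was used. Actin had 2700, 2610 and 2490 CPM in CT0, CT8 was above CT0 by 0.66 ± 0.09 (adjusted p = 1.3e-05), and Dm_8h did not differ from CT0 past the test (log2 -0.06 ± 0.09, adjusted p = 0.71). Against CT0 3 genes of the cytoskeleton list fell (5%) and 2 rose (3.33%), beside 10.3% and 10.3% of all genes. The actinin-type gene and alpha tubulin fell against CT0 as well, by 1.05 ± 0.17 and 0.33 ± 0.09. Folding enzymes also depended on the control. Of 51 heat shock and chaperone genes 8 rose (15.7%) and 7 fell (13.7%) against CT8, near the 11.9% and 13% of all genes. Against CT0 23 rose (45.1%) and 1 fell (1.96%), beside 10.3% and 10.3%. Tatro_005079-T1, of the TCP-1 chaperonin that folds actin and tubulin, fell by 0.63 ± 0.09 against CT8 and differed by -0.07 ± 0.09 from CT0. Tatro_000891-T1, an Hsp70 chaperone, rose from 36.2, 41.9 and 38.8 CPM to 131, 59.6 and 98.2 CPM (log2 1.33 ± 0.32).

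Few redox enzymes rose. Of 39 genes in the catalase, peroxidase, glutathione and thioredoxin list 2 rose (5.13%) and 7 fell (17.9%). Of all genes 11.9% rose and 13% fell, and of genes with a text 12.1% and 15.9%. The rises were those of the catalase Tatro_007179-T1 and the peroxiredoxin-type redoxin Tatro_004083-T1 (log2 0.73 ± 0.10). The haem peroxidase Tatro_009795-T1 fell from 1940, 1890 and 1830 CPM to 1060, 818 and 988 CPM (log2 -0.98 ± 0.10, adjusted p = 3e-09), and against CT0 by 0.61 ± 0.10. Against CT0 the list had 11 rises (28.2%) and 3 falls (7.69%), beside 10.3% and 10.3% of all genes. Surface proteins were split, with 6 of 20 up (30%) and 5 down (25%), beside 11.9% and 13% of all genes. Against CT0 10 were up (50%) and 5 down (25%), beside 10.3% and 10.3%. The CFEM protein Tatro_008185-T1, of a cysteine-rich family of fungal surface proteins, rose from 13.8, 12.5 and 9.47 CPM to 37.0, 89.1 and 40.7 CPM (log2 2.12 ± 0.31).

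**Figure D4:**
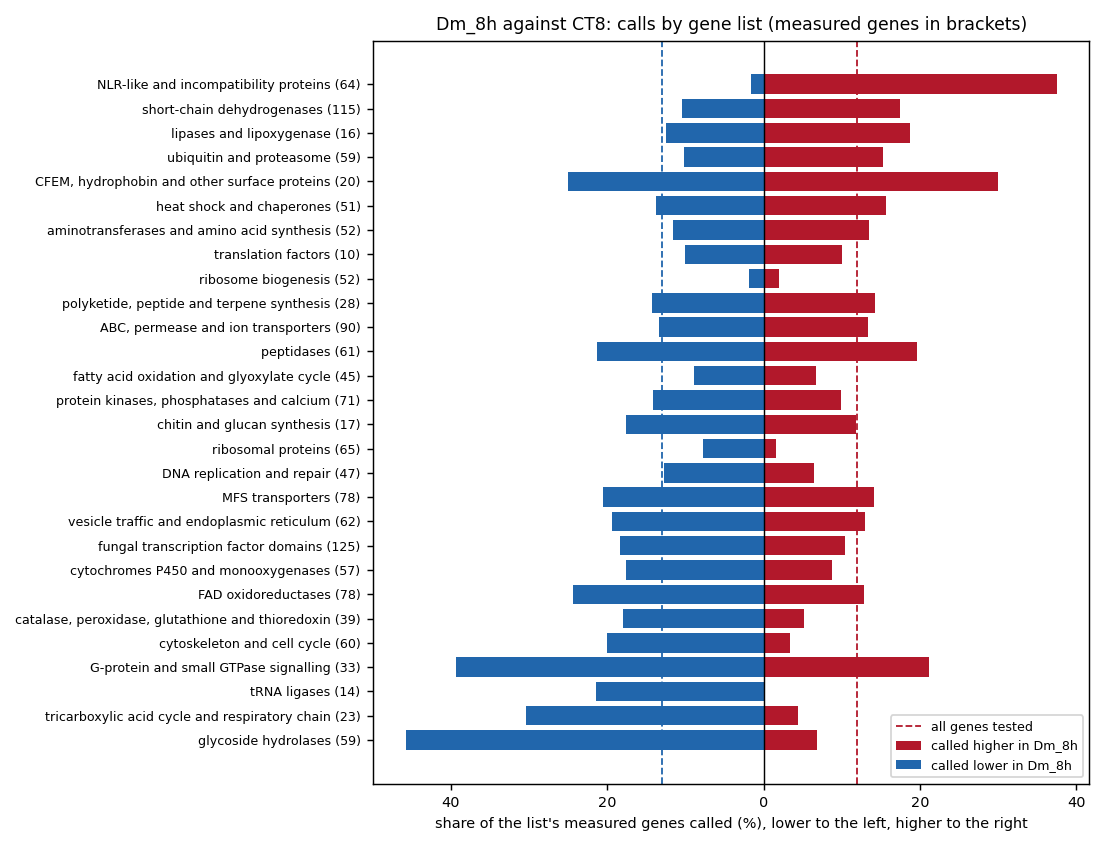
Bars give the share of each list's measured genes called higher (to the right) or lower (to the left) in Dm_8h than in CT8, for lists of at least 10 genes, with dashed lines at the shares of all genes tested, 11.9% and 13%. NLR-like and incompatibility proteins had 37.5% higher and 1.56% lower, and glycoside hydrolases 6.78% higher and 45.8% lower.

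Few ribosomal protein genes were called at 8 h. Of 65 ribosomal protein genes 64 had risen at 30 min after grazing against CT0 (median log2 0.82), but at 8 h against CT8 1 rose, 5 fell and 59 did not pass (median -0.13), and at 8 h against CT0 0 rose and 4 fell. Of 52 ribosome biogenesis genes 51 had risen at 30 min against CT0, and at 8 h against CT8 1 rose and 1 fell. Against CT0, the control of the early time, 1 rose (1.92%) and 10 fell (19.2%) at 8 h, beside 10.3% and 10.3% of all genes. The median log2 change was then -0.41. At 30 min after grazing 19.1% of all genes had risen and 20.4% had fallen. Membership of both lists required a change at 30 min after injury, so their 30 min counts do not describe unselected gene families. The part of this selection in the drop from 30 min to 8 h was not tested. In both lists, against CT8, replicate 1 stood lower than the others, with medians of -0.38 against -0.01 and 0.01 for the ribosomal proteins and -0.76 against 0.14 and 0.07 for ribosome biogenesis. The ribosomal protein L3 gene Tatro_008299-T1 was among the 5 falls, at 1770, 1680 and 1680 CPM in CT8 and 982, 1380 and 1250 CPM in Dm_8h (log2 -0.51 ± 0.13). Enzymes of the tricarboxylic acid cycle and respiratory chain had 7 falls (30.4%) and 1 rise (4.35%) among 23 genes, beside 13% and 11.9% of all genes. Among the falls was the aconitase-type Tatro_009541-T1 (log2 -0.94 ± 0.20). Injury at 8 h, against the same controls, gave 9 falls (39.1%) and 3 rises (13%), beside 11.6% and 10.9% of all genes. For Dm_8h against CT0 the list had 3 rises and 3 falls, 13% each, beside 10.3% and 10.3% of all genes. Fatty acid oxidation and glyoxylate cycle genes (3 of 45 up, 4 down) and DNA replication and repair genes (3 of 47 up, 6 down) had no more calls than all genes.

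How much of the early response was left was counted against groups that share no library with Dm_8h or CT8. Of the 1760 genes higher at 30 min after grazing 260 were also higher at 8 h (14.8%, and 23.7% of the 8 h rises) and 173 were lower (9.83%), beside 11.9% and 13% of all genes. Of the 1874 genes lower at 30 min 479 were lower at 8 h (25.6%, and 40.1% of the 8 h falls) and 207 were higher (11%). With the 90 min group, in which 16.9% of all genes rose and 17% fell, 305 of 1555 rises (19.6%) and 421 of 1559 falls (27%) were called in the same direction at 8 h. At 30 min 412 genes had risen at least 2-fold (4.48% of all genes) and 493 had fallen (5.36%). Of those rises 92 (22.3%) were also rises of at least 2-fold at 8 h, and 5 were falls. Of those falls 79 (16%) were also falls of at least 2-fold at 8 h, and 30 were rises. Of all genes 4.02% rose and 2.26% fell at least 2-fold at 8 h.

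The genes with the largest early changes show both outcomes. They were chosen for those early values, so only their 8 h levels are tested. The catalase, the methyltransferase, the lipoxygenase and the CFEM protein Tatro_008185-T1 were still higher at 8 h. The FAD/NAD(P)-binding Tatro_000291-T1 was higher too, at 1.53, 10.0 and 8.72 CPM against 0, 0.285 and 0.902 CPM (log2 3.94 ± 1.18, adjusted p = 0.011), but not past the test without Dm_8h replicate 3 (adjusted p = 0.093) or CT8 replicate 1 (adjusted p = 0.054). The cytochrome P450 Tatro_006595-T1 and the cytochrome b5-like Tatro_006594-T1, with adjacent identifiers, stood at 28.8, 142 and 28 CPM and at 16.6, 59.3 and 10.0 CPM at 4 h. At 8 h they were at 3.05, 26.1 and 8.31 CPM and at 0.763, 12.7 and 2.28 CPM, which overlaps CT8, and both were lower than at 4 h (log2 -2.63 ± 0.50 and -2.83 ± 0.59). Without Dm_4h replicate 2, their highest library, these were -1.45 (adjusted p = 0.034) and -1.76 (adjusted p = 0.052). The glycoside hydrolase Tatro_010893-T1, of the pectin-degrading family 28, was below CT0 by 5.13 ± 0.38 on the log2 scale at 30 min. At 8 h it had 9.54, 8.04 and 21.8 CPM against 26.1, 24.2 and 20.3 CPM in CT8, a difference that did not pass (log2 -0.68 ± 0.28, adjusted p = 0.076), but passed without Dm_8h replicate 3 (log2 -1.39, adjusted p = 0.0022). The CFEM protein Tatro_000363-T1 likewise did not pass (log2 -1.34 ± 0.52, adjusted p = 0.058), with 150 CPM in replicate 3 and 25.6 and 18.1 CPM in the others. It passed without Dm_8h replicate 3 (log2 -3.02, adjusted p = 0.0005) or CT8 replicate 2 (adjusted p = 0.046). Tatro_006355-T1, an alpha/beta hydrolase, was still lower (log2 -1.41 ± 0.42, adjusted p = 0.012), although not without Dm_8h replicate 1 or 2 (adjusted p = 0.083 and 0.057) or CT8 replicate 1 (adjusted p = 0.053), and at -2.52 without Dm_8h replicate 3.

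**Figure D5:**
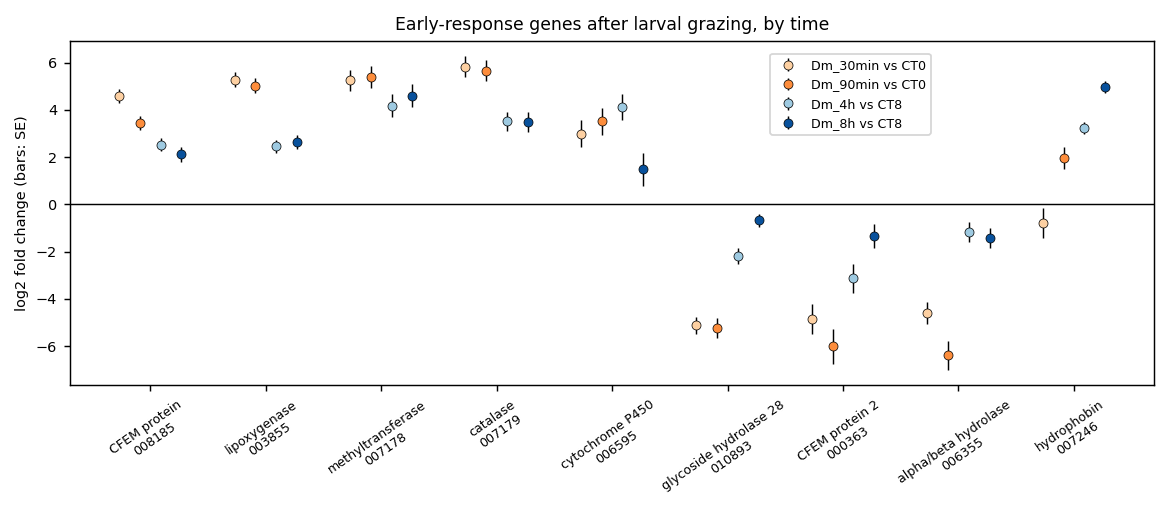
Points give the fitted log2 fold change with its SE for 9 early-response genes at 4 times after larval grazing, against CT0 at 30 and 90 min and against CT8 at 4 and 8 h. The catalase, the methyltransferase and the lipoxygenase stay above 0 throughout, the family 28 glycoside hydrolase Tatro_010893-T1 goes from -5.13 to -0.68, and the hydrophobin Tatro_007246-T1 from -0.79 to 4.96.

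Between 4 and 8 h after grazing 715 genes differed (7.78%), 389 of them higher at 8 h (4.23%) and 326 lower (3.55%), while 1888 genes (20.5%) differed between Dm_4h and CT8. The count fell to 298 without Dm_8h replicate 1, to 368 and 421 without Dm_4h replicates 1 and 3, and to 104 in a fit of the 6 libraries compared. With library totals alone the split was 439 higher and 187 lower. The dynamin gene Tatro_002486-T1, of the GTPases that cut membranes, was at 8.66, 8.70 and 10.5 CPM at 4 h, the level of CT8 (8.77, 10.3 and 10.4), and at 41.2, 26.8 and 28.7 CPM at 8 h (log2 difference 1.78 ± 0.29, adjusted p = 9.6e-05). The mannosidase Tatro_003610-T1 went from 6.93, 7.88 and 10.5 CPM to 45.4, 17.4 and 27.0 CPM (log2 1.82 ± 0.25), with 18.7, 19.4 and 19.2 CPM in CT8, within the 8 h range. Of the 59 glycoside hydrolase genes 11 were higher at 8 h than at 4 h and 5 were lower.

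Few genes separated larval grazing from scalpel injury at 8 h. Between Dm_8h and MI_8h 139 genes differed (1.51%), 84 higher after grazing (0.914%) and 55 lower (0.598%), 58 of them at least 2-fold (0.631%). Against the shared control 2290 genes were called for Dm_8h and 2071 (22.5%) for MI_8h. The number is fragile. It was 63 without Dm_8h replicate 1, 449 without Dm_8h replicate 3, 39 and 54 without MI_8h replicates 2 and 3, and 11 when only the 6 libraries were fitted. With library totals alone 50 genes were higher and 64 lower.

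The clearest differences from injury were in genes with adjacent identifiers, the ankyrin repeat gene Tatro_006439-T1 and the berberine-like Tatro_006438-T1. The first had 17.8, 15.1 and 22.4 CPM in MI_8h against 46.9 to 109 CPM in Dm_8h (log2 2.08 ± 0.27, adjusted p = 1.4e-05). The second had 11.0, 10.2 and 14.9 CPM against 43.9, 31.5 and 31.4 CPM (log2 1.57 ± 0.24, adjusted p = 0.00012). In neither did injury itself pass against CT8 (log2 0.70 ± 0.32 and 0.56 ± 0.27). Tatro_002107-T1, the cyclopropane synthase-type gene, was higher than after injury by 1.59 ± 0.27 and the basic-leucine zipper gene Tatro_007800-T1 by 1.22 ± 0.25. These 4 differences passed without any single library of either group. The lipoxygenase was higher by 1.34 ± 0.27 (adjusted p = 0.004), a call lost without Dm_8h replicate 2 (adjusted p = 0.063), and the methyltransferase Tatro_007178-T1 by 1.5 ± 0.34 (adjusted p = 0.016), lost without the same library (adjusted p = 0.17) or MI_8h replicate 3 (adjusted p = 0.084). The hydrophobin was higher by 0.76 ± 0.20 (adjusted p = 0.039), and not past the test without 1 of 4 libraries, Dm_8h replicates 1 and 2 and MI_8h replicates 2 and 3 (adjusted p from 0.092 to 0.26).

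Genes lower than after injury were less marked. When only the 6 libraries compared were fitted, 11 genes were higher than after injury and 0 were lower. The values below come from the fit over all groups. The transporter Tatro_007357-T1 had 79.0, 134 and 160 CPM in Dm_8h and 214, 296 and 232 CPM in MI_8h (log2 -0.98 ± 0.17, adjusted p = 0.001), and passed without any single library. The glycoside hydrolase Tatro_010233-T1 was lower by 1.05 ± 0.21 (adjusted p = 0.004), and just missed the threshold without Dm_8h replicate 1 (adjusted p = 0.057), while it was lower by 1.64 without replicate 3. The cerato-platanin gene Tatro_001935-T1, of the small secreted proteins that plants recognise, had 811, 240 and 857 CPM in Dm_8h and 1060, 1450 and 1560 CPM in MI_8h (log2 -1.08 ± 0.29, adjusted p = 0.042). Without Dm_8h replicate 2, its low library, the adjusted p was 0.22, and without MI_8h replicate 2 or 3 it was 0.18. Its difference from CT8 did not pass (adjusted p = 0.061), except without Dm_8h replicate 1 or 3 (adjusted p = 0.042 and 0.018).

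No gene was called for the other grazer at 8 h. Between Of_8h and CT8 edgeR called 0 of 9193 genes and DESeq2 also 0, with 118 genes (1.28%) at an unadjusted p under 0.05 by edgeR. That share is below what a limit of 0.05 would give if no gene differed. Both tests used a spread estimated over all groups, so the 0 does not show that small differences were absent. Tested directly, Dm_8h and Of_8h differed in 2023 genes (22%), 982 higher after larvae (10.7%) and 1041 lower (11.3%), or 1126 in a fit of the 6 libraries. Among annotated genes of at least 10 CPM the largest differences were those of the methyltransferase Tatro_007178-T1 (log2 4.01 ± 0.47), the hydrophobin (3.79 ± 0.24) and the catalase (3.05 ± 0.40) upward, and the family 71 glycoside hydrolase Tatro_002916-T1 (-2.45 ± 0.33) downward.

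Genes without a product text also changed. Tatro_007210-T1 had 0.462, 1.14 and 1.13 CPM in CT8 and 95.7, 82.4 and 77.7 CPM in Dm_8h (log2 6.52 ± 0.50, adjusted p = 1.9e-12), with 39.7, 35.2 and 36.2 CPM in MI_8h. Tatro_006948-T1 had 11.1, 14.7 and 6.02 CPM in Dm_8h, with a single read over the CT8 libraries, so no fold is given. Tatro_007605-T1 fell from 2190, 2500 and 1890 CPM to 123, 259 and 866 CPM (log2 -2.37 ± 0.32), and Tatro_004677-T1 from 748, 784 and 689 CPM to 65.6, 151 and 316 CPM (log2 -2.03 ± 0.25). In both, replicate 3 was the least changed. Tatro_002410-T1, the gene that dominated replicate 2, did not pass (log2 1.52 ± 0.97, adjusted p = 0.27, and log2 0.27 without that library).

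The authors' deposited table for larvae at 8 h lists 1074 genes, 623 up and 451 down, with false discovery rates up to 0.00498. Of the 1073 genes of the authors' deposited table that were tested here, 1056 were called in the same direction and 0 had the opposite sign. The table was made from these same libraries and is no independent evidence.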

How the data were processed

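Total RNA of 42 Trichoderma atroviride mycelium samples was sequenced with a stranded kit, per the labels. FastQC 0.11.6, HISAT2 2.1.0 and HTSeq 0.14.1 are named in the submitters' processing notes, while build, annotation and strand setting were not given in the sources used here. The authors deposited whole-number counts per gene model, and 1 model per gene was used, since models of a gene never differed. Result tables that the authors deposited, with log2 fold changes, a test statistic (score) and p-values, were used only for product texts and 1 overlap.

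Counts were tested with edgeR 4.0.16 (R 4.3.3) by its quasi-likelihood test over 14 groups with TMM scaling, filterByExpr and Benjamini-Hochberg adjustment at 0.05. On simulated data for Dm_8h against CT8, 43 of 50 genes raised 2-fold were called, over 9193 genes. The simulation gave each gene the same spread in all groups and changed only genes above a minimum mean level. It therefore does not show the recovery at the wider spread of the Dm_8h libraries or for genes of few counts. Alternatives were DESeq2 1.42.0, other scalings, no filter, only the compared groups, other controls and left-out libraries. Genes were named by a rule: the largest changes among called genes of at least 10 CPM whose groups did not overlap, up to 3 per list, and fixed early-response and signalling genes. Tatro_004091-T1 and Tatro_004083-T1 fall outside it and were chosen after their values were seen. The comparison, its genes and the lists were chosen with earlier results of these data known. Counts covered fungal genes only. Levels are not corrected for gene length.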

Additional observations from a re-analysis of the deposited data

Results flagged for a closer look

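The genes below differed between 8 h and 4 h after larval grazing by edgeR's quasi-likelihood test. Values are log2 Dm_8h minus Dm_4h.

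Among genes higher at 8 h the difference was 1.73 for the hydrophobin Tatro_007246-T1, 1.00 for the cytochrome P450 Tatro_001233-T1, 0.71 for the RGS gene Tatro_007094-T1 and 1.31 for the ankyrin repeat gene Tatro_006439-T1. It was 2.1 for Tatro_011386-T1 and 0.92 for Tatro_006438-T1, both berberine-like, 0.84 for Tatro_002107-T1, 1.82 for the mannosidase Tatro_003610-T1 and 1.78 for the dynamin gene Tatro_002486-T1. It was 0.83 for Tatro_008559-T1, 1.63 for Tatro_002627-T1, 1.83 for Tatro_006948-T1, 1.52 for the family 28 glycoside hydrolase Tatro_010893-T1 and 2.39 for Tatro_002727-T1.

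Lower at 8 h were the early oxidative pair, at -2.63 for Tatro_006595-T1 and -2.83 for Tatro_006594-T1. Transporters and enzymes were lower by smaller amounts, -1.75 for Tatro_007953-T1, -1.42 for Tatro_008771-T1, -1.63 for Tatro_011173-T1, -1.73 for Tatro_001099-T1, -1.51 for Tatro_001177-T1, -1.08 for Tatro_011193-T1, -1.22 for Tatro_010796-T1, -0.85 for Tatro_010233-T1 and -1.32 for Tatro_004848-T1. The wall enzyme Tatro_005017-T1 was at -0.55, the haem peroxidase Tatro_009795-T1 at -0.40, Tatro_007546-T1 at -0.45 and Tatro_004568-T1 at -0.50. The tRNA ligase genes Tatro_009352-T1 and Tatro_002789-T1 were at -0.74 and -0.75. Of the genes without a text, Tatro_007605-T1 was at -1.55 and Tatro_004677-T1 at -1.14.

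Of these 33 differences 16 passed the test without any single library of either group, and 17 did not pass in at least 1 of the 6 fits that left out 1 library. Without Dm_8h replicate 1 the test was not passed by Tatro_001177-T1, Tatro_008771-T1, Tatro_011193-T1, Tatro_010233-T1, Tatro_002107-T1, Tatro_006438-T1, Tatro_009352-T1, Tatro_007546-T1 and Tatro_004568-T1. Without Dm_8h replicate 2 the test was not passed by Tatro_007094-T1, Tatro_008771-T1, Tatro_011193-T1, Tatro_010233-T1, Tatro_002107-T1, Tatro_009795-T1 and Tatro_008559-T1. Without Dm_8h replicate 3 the test was not passed by Tatro_007094-T1, Tatro_002727-T1, Tatro_002107-T1 and Tatro_010893-T1. Without Dm_4h replicate 1 the test was not passed by Tatro_001233-T1, Tatro_007094-T1, Tatro_001177-T1, Tatro_008771-T1, Tatro_011193-T1, Tatro_002107-T1, Tatro_006438-T1, Tatro_009795-T1, Tatro_007546-T1 and Tatro_008559-T1. Without Dm_4h replicate 2 the test was not passed by Tatro_008771-T1, Tatro_011193-T1, Tatro_008559-T1 and Tatro_006594-T1. Without Dm_4h replicate 3 the test was not passed by Tatro_001233-T1, Tatro_007094-T1, Tatro_001177-T1, Tatro_011193-T1, Tatro_010233-T1, Tatro_002107-T1, Tatro_009352-T1, Tatro_007546-T1, Tatro_008559-T1, Tatro_004568-T1 and Tatro_006948-T1, with Tatro_010893-T1 at an adjusted p of 0.05. The highest adjusted p of those fits was 0.079 for Tatro_001233-T1, 0.22 for Tatro_007094-T1, 0.11 for Tatro_006438-T1, 0.21 for Tatro_002107-T1, 0.38 for Tatro_008559-T1, 0.065 for Tatro_006948-T1, 0.23 for Tatro_010893-T1 and 0.15 for Tatro_002727-T1. Among the genes lower at 8 h it was 0.052 for Tatro_006594-T1, 0.21 for Tatro_008771-T1, 0.15 for Tatro_001177-T1, 0.28 for Tatro_011193-T1, 0.13 for Tatro_010233-T1, 0.14 for Tatro_009795-T1, 0.23 for Tatro_007546-T1, 0.26 for Tatro_004568-T1 and 0.12 for Tatro_009352-T1.

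Leaving out Dm_8h replicate 3 moved several of the falls most, to -3.49 for Tatro_001177-T1, -2.85 for Tatro_011193-T1, -2.41 for Tatro_010796-T1, -2.93 for Tatro_007953-T1, -2.72 for Tatro_007605-T1, -1.94 for Tatro_004677-T1, -1.45 for Tatro_010233-T1 and -0.79 for Tatro_004568-T1. Without Dm_8h replicate 1 the values were -0.59 for Tatro_011193-T1, -0.81 for Tatro_010796-T1, -0.73 for Tatro_004677-T1 and -0.27 for Tatro_004568-T1. Without Dm_4h replicate 2 they were -1.45 for Tatro_006595-T1 and -1.76 for Tatro_006594-T1. Tatro_008559-T1 was at 0.38 without Dm_8h replicate 2, Tatro_010893-T1 at 0.80 without Dm_8h replicate 3, and Tatro_002727-T1 at 3.63 without Dm_4h replicate 3.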

How the results depend on the processing

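Of 110 named genes 66 kept their direction and their side of the threshold against CT8 in each of the 15 alternatives that tested them. The fit of the compared groups only covered 107 of the named genes, and the fit without Tatro_002410-T1 covered 109. Fitted on the compared groups only, the counts of changed genes were 1444 against CT8, 11 against MI_8h, 1126 against Of_8h and 104 against Dm_4h. Leaving out single libraries gave 1668 to 2475 genes against CT8, 39 to 449 against MI_8h, 1359 to 2206 against Of_8h and 298 to 1066 against Dm_4h, and 483 to 812 changed at least 2-fold against CT8. With changes of at least 2-fold in both, the share of early calls still called was 18.9% from 30 min (20.3% without the limit) and 25.5% from 90 min (23.3% without it). With library totals alone 50 genes were higher and 64 lower than in MI_8h (84 and 55 with TMM scaling), and 439 and 187 than in Dm_4h (389 and 326). Directions turned for Tatro_007359-T1 (0.01 without Dm_8h replicate 1 and -0.80 without replicate 3) and, against CT0, for Tatro_009043-T1 (0.08), Tatro_008499-T1 (0.07), Tatro_002627-T1 (-0.55), Tatro_009630-T1 (0.13), Tatro_000708-T1 (0.09), Tatro_003677-T1 (0.49), Tatro_005384-T1 (-0.08) and Tatro_006353-T1 (-0.06), with Tatro_003677-T1 at 0.17 against the mean of both controls. The cause was not tested. DESeq2 called 2177 genes against CT8. Replicate numbers did not pair Dm_8h with CT8 (correlations of -0.031, -0.021 and -0.074 for samples of the same number), and a fit with the replicate number as a block gave 2256 genes against CT8, 577 at least 2-fold, 136 against MI_8h, 2005 against Of_8h and 704 against Dm_4h. Depth was lowest in Dm_8h replicate 2, at 1607248 counts, which limits genes of few counts.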
